A study of Arabidopsis thaliana with 42 samples.

Results

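The 150 genes described here are those that stood highest in *rpn12a-236* over WT in individually darkened leaves (IDLs) of both 3 d and 6 d while differing little between the genotypes before darkening. *rpn12a-236* is an Arabidopsis EMS line with a premature stop codon in RPN12a, a lid subunit of the 19S regulatory particle of the proteasome, in the Col-0 background, and WT is Col-0. It is a single line, and other changes that EMS may have left in it were not examined here. Single leaves of short-day plants were covered while the rest of the plant stayed in the light. The RNA-seq comprised 42 libraries in 14 conditions of 3 biological replicates, each a pool of leaves from independent plants. *rpn12a-236* leaves came from light-grown plants at 0 d and from IDLs of 6 h, 1 d, 3 d and 6 d. WT leaves came from the same 5 conditions and, at the 4 later times, from uncovered leaves in the light. Harvest was at hour 8 of the day, apart from the 6 h leaves, which were taken at hour 14. No *rpn12a-236* leaf was sampled in the light after 0 d, so that the absence of a genotype difference in the light rests on 0 d alone, and age and darkness cannot be told apart in the mutant.

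The members were chosen from the deposited table, which gives each of 27050 genes a z-score in every library: the normalised expression of that gene, centred on its mean and divided by its SD over the 42 libraries. A difference of 1 is therefore 1 SD of that gene, and it carries no fold change, no level relative to other genes and no depth. A gene was left out when its lowest value was shared by at least 2 libraries, the mark of a gene at the floor of detection, which left 17536 genes. Of these, 4948 had genotype means within 0.3 of each other at 0 d. They were ranked by the smaller of the *rpn12a-236* less WT differences at 3 d and at 6 d, and the first 150 were taken. The last gene inside was AT5G10010, whose smaller difference was 1.51, preceded by IAA2 at 1.51, and the first outside were AT2G40290 and AT1G79640 at 1.5 each. The 0 d leaves and the later IDLs of 3 d and 6 d thus made the selection and are given as a description, without a test. The 6 h and 1 d IDLs and the WT light leaves after 0 d, 24 libraries in all, entered neither the 0 d requirement nor the ranked differences. They did count towards the floor and towards the mean and SD of each gene, so they were not wholly apart from the choice. Below, libraries or times outside the selection are those outside these differences.

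The 26S proteasome degrades proteins that carry ubiquitin chains. Its 19S particle binds and unfolds them, and its 20S core cleaves them. A leaf that is darkened alone on a lit plant stops photosynthesis, lives on stored and recycled material and enters senescence within days, during which transcripts of photosynthetic proteins fall, chloroplasts are taken apart, and nitrogen is exported to the rest of the plant. Kinases that sense energy and stress, clock-linked factors and hormone response factors all read the loss of light in leaves.

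The mutant's identity could be checked only in part, because a stop codon need not change the transcript. RPN12a (AT1G64520, chromosome 1) had z-scores between 1.18 and 1.43 in the 15 *rpn12a-236* libraries, against -1.31 to -0.12 in the 27 WT libraries. Replicates of a condition correlated across genes with at least 0.70, except WT light 6 h replicate 3, which correlated with its mates by 0.568 and was kept in the fits. The counts that it decides are also given without it. Markers of guard cells (7 of 7 found), phloem (5 of 6), epidermis (6 of 6), trichomes (3 of 4) and mesophyll (4 of 4) were in the table, and none was among the 150. Their median *rpn12a-236* less WT differences at 3 d and 6 d were 0.46 and -0.59 for guard cells, 0.42 and -0.26 for phloem, -0.16 and -0.20 for epidermis, 0.62 and -0.25 for trichomes, and 0.51 and 0.43 for mesophyll. In 1 d IDLs, where genes without a floor had a median of 0.02, all the marker medians were above 0. In the same order they were 1.54, 0.77, 0.24, 0.28 and 0.54, over the markers tested. At 6 h they were -0.06, -0.13, -0.42, -0.06 and -0.22. The part of the markers in the differences of the 150 genes was not tested. In whole leaves, fewer cells of a type and less RNA per cell cannot be told apart.

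Before darkening, the 150 genes together stood alike in both genotypes, as their choice required. Their mean z-score in *rpn12a-236* was -0.08 before darkening, then 0.42 (6 h), 0.63 (1 d), 1.19 (3 d) and 1.06 (6 d), each a mean over genes and 3 libraries. In WT IDLs the same mean was -0.10 before darkening, then -0.17 (6 h), -0.24 (1 d), -0.84 (3 d) and -1.13 (6 d). The means moved upwards in the mutant and downwards in WT, but those of 3 d and 6 d come from values that made the selection. At 6 h and 1 d, whose differences were not ranked, the mutant mean stood above its 0 d level. That 0 d level was itself used in the selection, and the 6 h leaves were harvested at another hour than the 0 d leaves. WT IDLs less WT light leaves had medians over the 150 genes of 0.04 at 6 h and 0.02 at 1 d. The mutant libraries lay above the WT libraries from 6 h on. They had 0.32 to 0.50 in *rpn12a-236* and -0.26 to -0.05 in WT at 6 h, and 0.58 to 0.67 in *rpn12a-236* and -0.32 to -0.11 in WT at 1 d. WT leaves kept in the light had means of -0.26 (6 h), -0.13 (1 d), -0.24 (3 d) and -0.10 (6 d), and their 12 libraries stayed between -0.28 and -0.07.

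**Figure D1:**
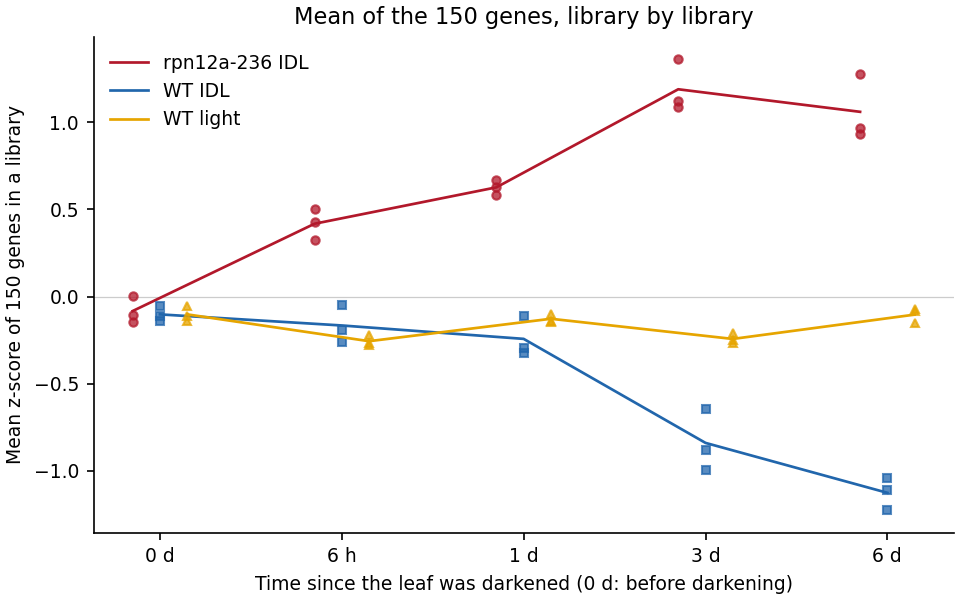
Mean z-score of the 150 genes in each library (y axis, in SDs of each gene over the 42 libraries) against sampling time (x axis). Points are libraries, lines join the means of 3 libraries, the 0 d points are light leaves of each genotype and the WT ones are drawn under both WT lines. The *rpn12a-236* mean reaches 1.19 at 3 d, the WT IDL mean reaches -1.13 at 6 d, and WT light stays between -0.28 and -0.07 after 0 d.

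Gene by gene, the differences that made the selection ran between 1.52 and 3.34 at 3 d, with a median of 1.94, and between 1.51 and 3.59 at 6 d, with a median of 2.1, while at 0 d the median was 0.02. At 6 h and 1 d, whose differences were not ranked, they spread over both signs. They ran between -1.34 and 2.16 at 6 h with a median of 0.57, and between -2.16 and 2.78 at 1 d with a median of 0.99, where the genes without a floor had medians of -0.01 at 6 h and 0.02 at 1 d.

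**Figure D2:**
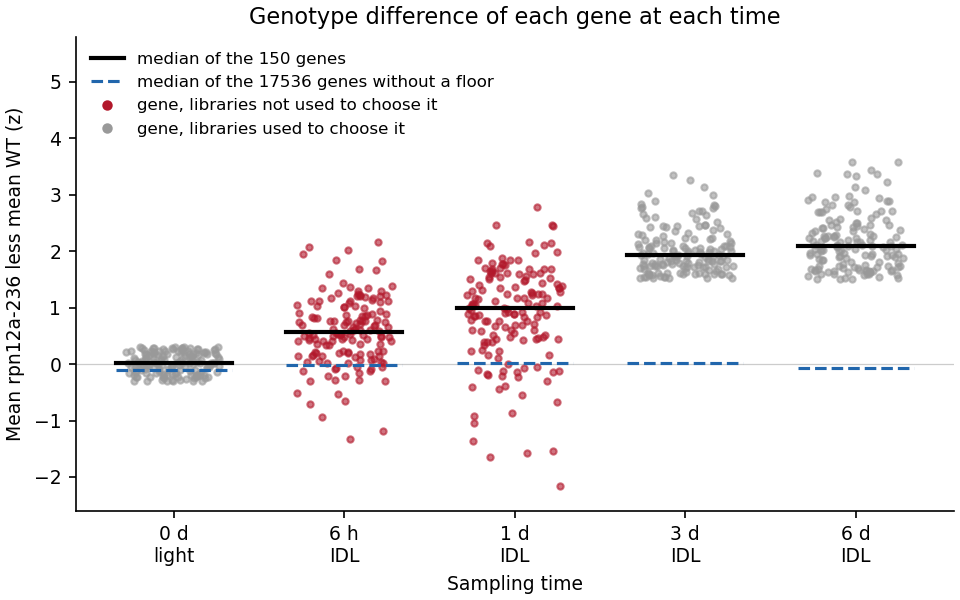
Mean *rpn12a-236* z-score less mean WT z-score (y axis) of each of the 150 genes at each time (x axis), with grey points for times used to choose the genes and red points for times that were not. Black bars mark the median of the 150 genes, 0.57 at 6 h and 0.99 at 1 d, and dashed blue bars the median of the 17536 genes without a floor.

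The common difference was reached in several ways. Taking the mean of 3 d and 6 d IDLs less 0 d in each genotype, and calling a shift of over 0.5 a change of level, 60 genes went up in *rpn12a-236* and stayed within 0.5 in WT, with median shifts of 2.1 in the mutant and -0.01 in WT. Another 35 went up in *rpn12a-236* and down in WT, with medians of 0.96 and -1.33. In 22 genes the mutant stayed near its 0 d level, with a median shift of 0.17 against -1.88 in WT, and in 20 genes both went down, with medians of -0.80 in the mutant and -2.66 in WT. The remaining 13 went up in both, by medians of 2.54 in the mutant and 0.80 in WT. These shifts come from the libraries that chose the genes and are a description.

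Named genes show what each course holds. EPR1, a MYB-like factor of the clock-linked REVEILLE family, was among those that went up in the mutant alone, by 1.63 against -0.39 in WT. CDC2, the cyclin-dependent kinase that drives the plant cell cycle, and SWN, a histone H3K27 methyltransferase of Polycomb repressive complex 2, went up in the mutant by 1.40 and 1.28 and down in WT, at -1.25 and -1.49. DELTA-TIP, an aquaporin of the vacuolar membrane, moved by 0.30 in the mutant and -1.64 in WT. NPQ1, the violaxanthin de-epoxidase of photoprotection, moved by 0.01 in the mutant and -2.11 in WT. The photosynthetic genes PETE1 (plastocyanin) and PSBO2 (a subunit of the oxygen-evolving complex) went down in both genotypes, with shifts of -0.82 and -1.20 in *rpn12a-236* and -2.82 and -2.87 in WT. IMB1, a bromodomain protein, and DDB1B, an adaptor of CUL4 ubiquitin ligases, went up in both, by 2.95 and 2.65 in the mutant and 0.78 and 1.06 in WT.

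**Figure D3:**
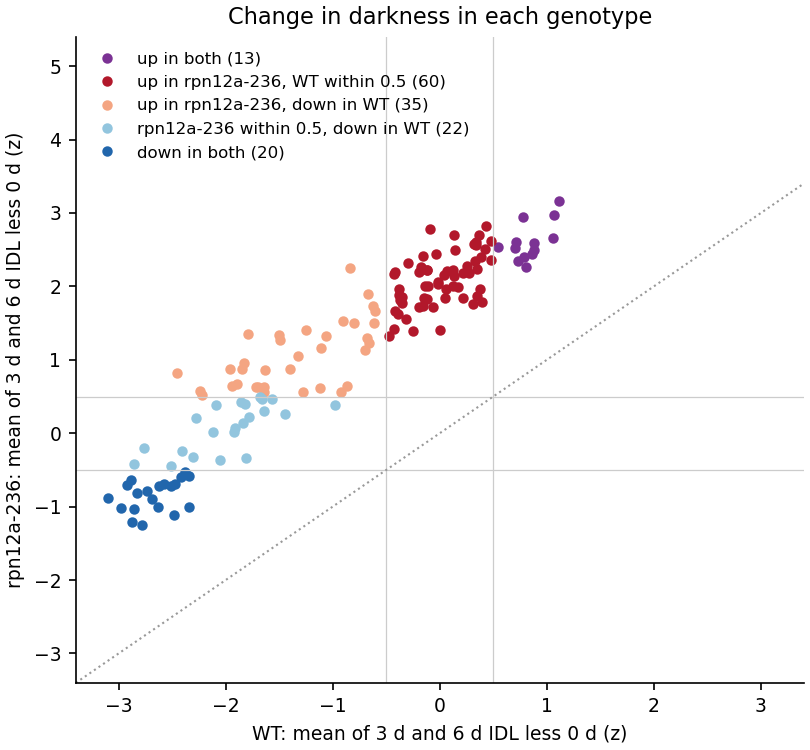
Shift of each of the 150 genes in *rpn12a-236* (y axis) against its shift in WT (x axis), both as the mean z-score of 3 d and 6 d IDLs less that of 0 d. Grey lines mark shifts of 0.5 either way, the dotted line marks equal shifts, and colours give the 5 courses, the most frequent being up in *rpn12a-236* with WT within 0.5 (60 genes). All points lie above the dotted line, as the selection requires.

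Short stretches of promoter are shown for 5 members whose differences at 6 h or 1 d are described below, so that the motif matches counted over all promoters can be seen in place. The 250 bases before each gene start (RefSeq annotation of TAIR10.1) were searched on both strands, for 149 members and 26790 genes in all. The core of the evening element, AATATCT, was in 14.1% of member promoters and 9.83% of all. The G-box, CACGTG, was in 6.71% of member promoters and 6.57% of all. The I-box, GATAAG, was in 18.8% of member promoters and 12.5% of all, and the site II motif, TGGGCC, in 24.2% of member promoters, 17.6% of those of genes without a floor and 14% of all. The telo box, AACCCTA, with 4.70% and 6.14%, and the W-box core TTGACC, with 8.05% and 12%, were less common in member promoters than in all. No motif of the list contains the letters of another, the 2 PARC6 windows overlap each other, and a match is a description and not a binding site. Motif letters are in capitals and the flanks in lower case.
EPR1, evening element core, chr1:6308275-6308301, minus strand: atcacaaaaaAATATCTtcttcataat
AT3G13740, evening element core, chr3:4503886-4503912, minus strand: aaatgattgcAATATCTccatgtgaga
MUB1, evening element core, chr3:12880-12906, minus strand: tttattttgtAATATCTgtcattcaca
PARC6, first G-box, chr3:6632541-6632566, plus strand: ctttattatcCACGTGgcgtgatcac
PARC6, second G-box, chr3:6632554-6632579, plus strand: gtggcgtgatCACGTGaccacgtctc
AT2G25950, I-box, chr2:11068531-11068556, minus strand: tggtgtttctGATAAGcaatcataaa
The EPR1 match reads in the direction of the gene, 48 bases before its start, and those of AT3G13740 (171 bases before), MUB1 (156) and AT2G25950 (20) read opposite to it. The G-boxes of PARC6 lie 86 and 73 bases before its start.

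After 1 d of darkness many of the 150 genes already stood higher in *rpn12a-236*. The genotypes were compared by limma on the 12 libraries of 6 h and 1 d IDLs, and a gene was called at an adjusted p of at most 0.01 over the 22703 genes tested. All 150 members were tested. At 1 d, 64 of them (42.7%) were called higher, where 8.47% of all genes tested were, and 4 (2.67%) were called lower, where 8.55% of all were. The difference was above 0 in 124 of the 150. Of 150 genes taken by the same rule in the other direction, those lowest in *rpn12a-236*, 0 were called higher (1 at an unadjusted p under 0.05) and 45 were called lower at 1 d. The 3 *rpn12a-236* libraries lay wholly above the 3 WT libraries in 101 members (67.3%), against 23.7% of all genes tested, and wholly below them in 12 (8%), against 21.7% of all. By course, the calls at 1 d took 13 of the 20 genes that went down in both genotypes, 18 of the 35 that went up in the mutant and down in WT, 24 of the 60 that went up in the mutant alone, 6 of the 22 that held in the mutant, and 3 of the 13 that went up in both. The count of 64 became 37 without WT IDL 1 d replicate 1 or replicate 3 and 39 without *rpn12a-236* IDL 1 d replicate 1, and the count of 4 became 1 to 2 without any of 8 single libraries, among them every 1 d library.

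**Figure D4:**
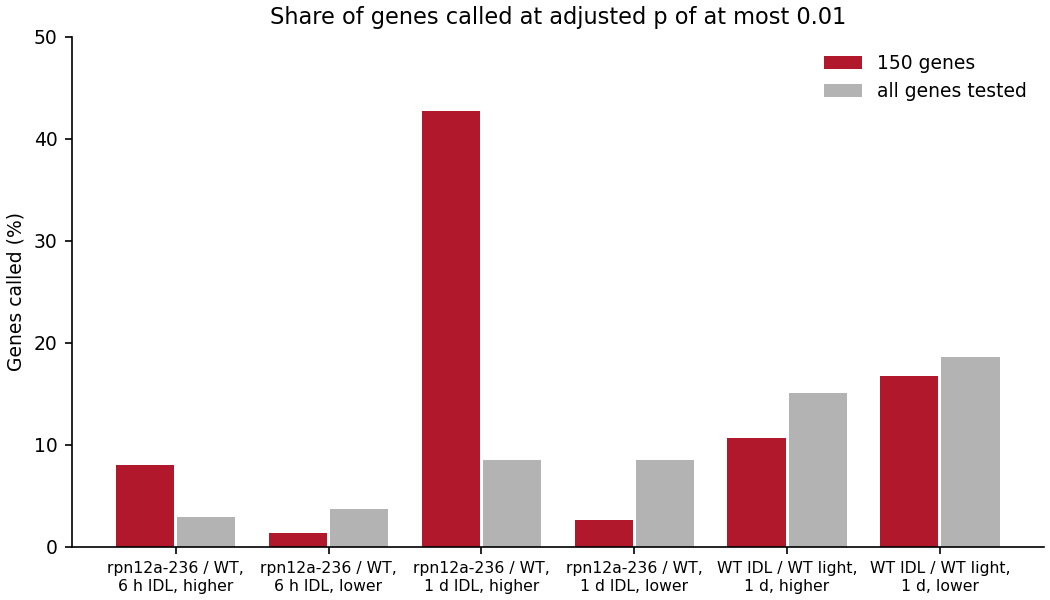
Share of genes called at an adjusted p of at most 0.01 (y axis, percent) among the 150 genes (red) and among all genes tested (grey), for *rpn12a-236* over WT in 6 h and 1 d IDLs and for WT IDLs over WT light leaves at 1 d. The red bar is far above the grey one for genes higher in *rpn12a-236* at 1 d (42.7% and 8.47%) and below it for both directions of the WT comparison.

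The gene ranked first, AT2G37050, encodes a leucine-rich repeat protein kinase. In 1 d IDLs it had 0.94, 1.15 and 1.17 in *rpn12a-236*, against -0.45, -0.37 and -0.70 in WT. The groups did not overlap, and the difference was 1.59 ± 0.19 (SE, n = 3 each, adjusted p = 0.000321). Its description at the later times ran the same way, with 1.12, 1.20 and 1.73 in *rpn12a-236* and -1.64, -2.17 and -2.18 in WT at 3 d. WT leaves kept in the light had 0.48, 0.03 and 0.21 at 1 d, between the genotypes' IDLs.

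The second gene, MUB1, encodes a membrane-anchored ubiquitin-fold protein, a ubiquitin-like protein of the plasma membrane. It had 1.67, 1.40 and 0.91 in *rpn12a-236* at 1 d, against -0.76, 0.09 and 0.12 in WT. Every mutant library was above every WT library, by 1.51 ± 0.29 on average (SE, n = 3 each, adjusted p = 0.00317). Of the next 8 in rank, AT5G37340 (1.70), AT1G49980 (1.39), CDC2 (0.89), AACT1 (1.59), AT2G25950 (2.14) and PMAT2 (1.54) were called higher at 1 d. POLGAMMA1, an organelle DNA polymerase, was at -0.41 and AT3G27030 at 0.66 and neither was called. The call of CDC2 was lost in 10 of the 12 fits that left out a library, that of AT5G37340 in 4, and those of MUB1 and PMAT2 in 3 each.

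The largest difference at 1 d among the 150 genes belonged to AT3G13740, annotated as a ribonuclease III family protein. It had 1.83, 0.91 and 2.59 in *rpn12a-236*, against -1.28, -0.73 and -1.01 in WT, a difference of 2.78 ± 0.40 (SE, n = 3 each, adjusted p = 0.000744). The mutant libraries varied over more than 1 SD of the gene, but all lay above the highest WT library. EPR1 was tighter, with 1.51, 1.29 and 1.76 in *rpn12a-236*, against -0.96, -0.68 and -1.20 in WT, and differed by 2.46 ± 0.27 (adjusted p = 0.000198). Its WT light leaves of 1 d had -0.61, -0.33 and -0.60, so that it was the mutant that stood away from both WT groups. DELTA-TIP had 2.28, 1.61 and 2.37 in *rpn12a-236*, against -0.54, 0.59 and -1.12 in WT, with a difference of 2.44 ± 0.52 (adjusted p = 0.00559). AT3G60310, an acyl-CoA synthetase family protein, GRIK2, a kinase that activates the energy sensor SnRK1, and AT3G62190, a DnaJ-domain protein, completed the 6 largest at 2.47, 2.16 and 2.15. The calls of DELTA-TIP and AT3G60310 were lost in 4 and 5 of the 12 fits that left out a library.

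The 4 genes called lower at 1 d turned over between 1 d and 3 d. AT3G27180, a SAM-dependent methyltransferase family protein, had -1.34, -2.12 and -2.14 in *rpn12a-236* at 1 d, against -0.31, 0.97 and 0.22 in WT, a difference of -2.16 ± 0.41 (SE, n = 3 each, adjusted p = 0.00316). At 3 d, among the values used in the choice, it had 0.66, 0.72 and 0.90 in *rpn12a-236*, against -0.55, -0.90 and -1.18 in WT. The RNA helicase AT5G39840 differed by -1.57 ± 0.27 at 1 d (adjusted p = 0.00191). ECT3, a YTH-domain reader of methylated adenosine in mRNA, differed by -1.55 ± 0.37 (adjusted p = 0.00917), with -1.53, -1.10 and -0.94 in *rpn12a-236* and 0.19, 0.03 and 0.85 in WT, and its call was lost in 10 of the 12 fits that left out a library. AT5G25757, annotated as an RNA polymerase I-associated factor, differed by -1.04 ± 0.23 (adjusted p = 0.00731), a call lost in 9 of those 12 fits. The call of AT3G27180 was lost in 4 of them. Each of the 4 genes stood 1.52 or more above WT at 3 d and 6 d, which the choice required.

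**Figure D5:**
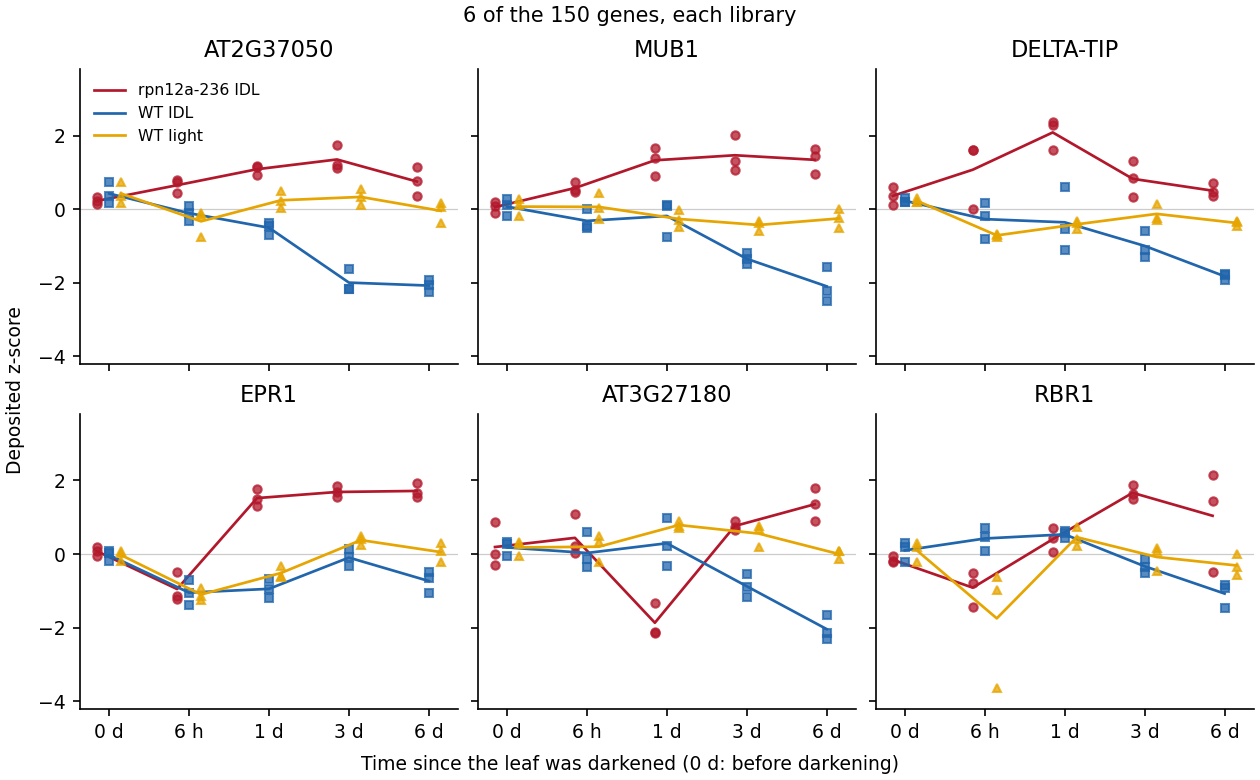
Deposited z-scores (y axis) of 6 of the 150 genes in each library against sampling time (x axis), with lines through the means of 3 libraries; the WT 0 d light leaves are drawn under both WT lines. AT2G37050, MUB1 and DELTA-TIP are above WT at 1 d, EPR1 separates between 6 h and 1 d (0.10 and 2.46), AT3G27180 is lower in *rpn12a-236* at 1 d (-2.16), and RBR1 is lower in it at 6 h (-1.34), where WT light replicate 3 lies at -3.63.

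At 6 h the same direction was common but few genes passed. The difference was above 0 in 129 of the 150 members, 12 (8%) were called higher, where 2.87% of all genes tested were, and 2 (1.33%) were called lower, where 3.73% of all were. At an unadjusted p under 0.05, 70 members were higher, as were 3187 of all 22703 genes tested. The mutant libraries lay wholly above the WT libraries in 76 members (50.7%), against 15.8% of all genes tested, and wholly below in 2 (1.33%), against 19% of all. Of the 12, 8 were also called higher at 1 d. Another 56 genes were called higher at 1 d but not at 6 h, 4 at 6 h but not at 1 d, and 77 at neither time in either direction. The differences were above 0 at both times in 108 genes and below 0 at both in 5. The count of 12 became 3 without *rpn12a-236* IDL 6 h replicate 1, to 5 without its replicate 2, and to 6 or 7 without its replicate 3, any WT IDL 6 h library, WT IDL 1 d replicate 1 or *rpn12a-236* IDL 1 d replicate 2, and the count of 2 became 0 or 1 without any library but *rpn12a-236* IDL 6 h replicate 3.

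PARC6, a chloroplast division protein, was among the earliest. It had 1.04, 1.42 and 0.95 in *rpn12a-236* at 6 h, against -0.90, -1.05 and -0.71 in WT, and differed by 2.03 ± 0.28 (SE, n = 3 each, adjusted p = 0.00124). The same gap stood at 1 d, at 1.98 ± 0.28 (adjusted p = 0.000651). AT1G49980, annotated as a DNA/RNA polymerase superfamily protein, had 0.70, 0.69 and 1.25 in *rpn12a-236* at 6 h, against -0.98, -1.07 and -0.86 in WT, a difference of 1.85 ± 0.19 (adjusted p = 0.000217). SWN, the Polycomb methyltransferase, had 0.72, 0.81 and 0.78 in *rpn12a-236* at 6 h, against -0.26, -0.01 and -0.45 in WT. None of these groups overlapped, and the SWN difference was 1.01 ± 0.20 at 6 h (adjusted p = 0.00729) and 1.5 ± 0.20 at 1 d (adjusted p = 0.000483).

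AT2G35040, which carries the last steps of purine synthesis, was high in the mutant at 6 h and not at 1 d. It had 1.48, 2.54 and 1.68 in *rpn12a-236* at 6 h, against -0.18, 0.58 and -0.53 in WT (1.94 ± 0.39, SE, n = 3 each, adjusted p = 0.00806). At 1 d it had -2.23, -1.37 and -1.39 in *rpn12a-236* and -1.47, -1.21 and -0.64 in WT, and the groups overlapped. AT2G13550 differed by 2.07 ± 0.42 at 6 h (adjusted p = 0.00861). The calls of AT2G35040, AT2G13550 and RBR1 at 6 h were lost in 9, 10 and 11 of the 12 fits that left out a library. RBR1, the retinoblastoma-related repressor of cell cycle entry, ran the other way, with -0.80, -1.43 and -0.52 in *rpn12a-236* at 6 h, against 0.46, 0.71 and 0.09 in WT. That difference was -1.34 ± 0.28 (adjusted p = 0.00896), and at 1 d the groups overlapped at -0.13. HIPL2 was the other gene called lower at 6 h, a call lost in 6 of the 12 fits that left out a library.

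Whether the genotype difference itself changed between 6 h and 1 d was tested by the interaction of genotype and time. It was called in 4 of the 150 genes, 2.67%, against 1.55% of all genes tested, and their values are given among the additional observations. In EPR1 and HIPL2 the difference was greater at 1 d than at 6 h, and in AT5G39840 and AT1G63660 it was lower. The count of 4 became 0 when any library but WT IDL 6 h replicate 2 was left out.

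Of the list of genes annotated as kinases, 13 were members, 8.67% of the 150 genes, where kinases were 5.58% of the genes without a floor. At 1 d, 10 of the 13 were called higher and none lower, while the whole list of 1156 tested kinases had 124 higher and 117 lower with a median difference of 0.03. Whole lists were not chosen for standing high in the mutant, as the members were. Members of this list and of those below therefore compare with all 150 genes, of which 42.7% were called higher at 1 d and 8% at 6 h. GRIK2 had 1.64, 0.82 and 0.22 in *rpn12a-236* at 1 d, against -1.67, -1.10 and -1.03 in WT, and differed by 2.16 ± 0.37 (SE, n = 3 each, adjusted p = 0.0018). The mitogen-activated protein kinases MPK1 and MPK16, members of phosphorylation cascades, differed by 1.31 ± 0.20 (adjusted p = 0.000932) and 1.69 ± 0.22 (adjusted p = 0.000433). IBS1, a kinase of priming responses, differed by 2.1 and LCBK1, which phosphorylates sphingoid bases and counts among the lipid genes too, by 1.17. CIPK1, a partner of calcineurin B-like calcium sensors, was at 0.76 (adjusted p = 0.0365), and the osmotic stress kinases SNRK2-8 and SNRK2.10 were at 0.85 and 0.49, and these 3 were not called. SNRK2-8 and SNRK2.10 were also the 2 members from the 169 genes of the study's senescence list, 1.33% of the 150 genes against 0.798% of the genes without a floor.

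Transcription factors and related regulators numbered 13 as well, 8.67% of the 150 genes against 3.36% of the genes without a floor. At 1 d 3 of the 13 were called higher, where 42.7% of the 150 genes were: EPR1, the MYB-like AT5G06800 (1.55) and AT4G31270 (1.28). The list as a whole had 87 of 824 higher and 46 lower. RVE2, a relative of EPR1, was at 0.39 at 1 d and was not called, though it was among the genes furthest apart at 6 d, at 3.13. HSF3, a heat shock factor, had 0.77, 0.98 and 0.79 in *rpn12a-236* at 1 d, against 0.56, 1.17 and 0.82 in WT, and the groups overlapped. The auxin response repressors IAA13 and IAA2 were at 0.25 and -0.12. AT1G07470 and AT1G07480, a pair of nearly identical genes for the large subunit of TFIIA, may share reads, and their values are uncertain as separate genes.

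Of the study's list of 646 hormone genes, 6 were members: IAA13, IAA2, the SAUR gene AT4G38860, the type-A cytokinin response regulator ARR9, APT3, which salvages adenine and cytokinin bases, and DELTA-TIP. APT3 and DELTA-TIP were called higher at 1 d, where the whole list had 57 of 596 higher and 70 lower. APT3 had 0.18, 0.08 and 0.24 in *rpn12a-236*, against -1.33, -1.26 and -1.20 in WT, a difference of 1.43 ± 0.18 (SE, n = 3 each, adjusted p = 0.000425). The WT light leaves of 1 d stood above both, at 1.14, 1.05 and 1.09. ARR9 was at 0.93 (adjusted p = 0.0378).

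PETE1 and PSBO2 were the 2 members from 72 photosystem and antenna genes, 1.33% of the 150 genes against 0.371% of the genes without a floor. There was none from the Calvin cycle or chlorophyll synthesis. Those lists were 0.125% and 0.154% of the genes without a floor, too small for an absence to be read. PETE1 had 1.24, 0.91 and 1.23 in *rpn12a-236* at 1 d, against -0.47, 0.15 and -0.78 in WT, and differed by 1.49 ± 0.27 (SE, n = 3 each, adjusted p = 0.00225). PSBO2 had 0.16, 0.13 and 0.04 in *rpn12a-236*, against -0.71, -0.55 and -1.08 in WT, and differed by 0.89 ± 0.21 (adjusted p = 0.00988), a call that was lost in 11 of the 12 fits that left out a library, while that of PETE1 was lost in 1. At 6 h neither was called, at 0.18 and -0.31. In the whole photosystem list 18 of 70 genes were called higher and 0 lower at 1 d, with a median difference of 0.76 where that of all genes tested was 0.02.

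The proteasome itself was not among the 150 genes. Of the 67 genes of the study's proteasome list none was a member. Of the 65 tested, 51 were called higher in *rpn12a-236* at 6 h and 51 at 1 d. The rule took only genes that differed little between the genotypes before darkening. The paper reports that transcripts of nearly all subunits were higher in the mutant whether or not leaves were darkened. The rule leaves out genes of that kind, so their absence cannot be read as a result about darkened leaves. The broader annotation of ubiquitin and proteasome genes gave 7 members, 4.67% of the 150 genes against 3.97% of the genes without a floor. They were MUB1, BPM2, which links substrates to CUL3 ligases, HOS1, a RING ligase of cold signalling, and the RING genes AT4G03000, AT5G24460, AT2G19260 and EDA40. MUB1 alone was called at 1 d, where the whole list had 107 of 889 higher and 43 lower. BPM2 was at 0.93 (adjusted p = 0.0113), EDA40 at 1.70 (adjusted p = 0.0393) and HOS1 at 0.60. Chaperone genes gave 3 members, 2% of the 150 genes against 1.27% of the genes without a floor. Of these, AT3G62190 was called (2.15 ± 0.24, SE, n = 3 each, adjusted p = 0.000214) and Fes1B and HSF3 were not, where the whole list had 18 of 249 higher and 17 lower.

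Transporters and channels gave 5 members, 3.33% of the 150 genes against 3.34% of the genes without a floor, and 4 of these were called higher at 1 d, where the whole list had 68 of 698 higher and 49 lower: DELTA-TIP, the potassium channel KT1 (1.22), the mitochondrial carrier SAMTL (1.62) and YSL5 (1.35), of a family that carries metal chelates. The fifth, AT2G37900, was at 0.77 (adjusted p = 0.0328). Lipid genes gave 6 members, 4% of the 150 genes against 1.36% of the genes without a floor. Of these, 5 were called higher at 1 d, where 42.7% of the 150 genes were and the whole list had 35 of 335 higher and 25 lower. At 6 h 2 of these were called higher, where the whole list had 6 higher and 18 lower: the lipase-like AT1G04985 (1.44 at 6 h and 1.68 at 1 d) and the acyltransferase family gene At1g78690p (1.66 at 6 h and 1.36 at 1 d). The 6 h call of AT1G04985 was lost in 3 of the 12 fits that left out a library. AACT1, a thiolase that makes acetoacetyl-CoA, was at 1.59 ± 0.23 at 1 d (SE, n = 3 each, adjusted p = 0.000797). Cell wall genes gave 3 members, 2% of the 150 genes against 0.844% of the genes without a floor. The callose synthase family gene GSL11 (1.12) and AT5G25265 (1.16) were called higher at 1 d. Each of these calls was lost in 5 of the 12 fits that left out a library. TBL2 was not called, at 1.02, and the whole list had 18 of 237 higher and 13 lower. There was 1 member from the respiratory chain, AT4G26965, at 0.44 at 1 d, 0.667% of the 150 genes against 0.604% of the genes without a floor. There were 2 annotated ribosomal protein genes, AT2G07696 at 1.00 and AT3G17626 at 1.25, 1.33% against 1.78%. None of these genes was called. The ribosomal protein list as a whole had 179 of 326 genes called lower and 3 higher at 1 d, with a median of -1.59.

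In WT, darkening alone did not mark the 150 genes out as a whole at 1 d, though their courses differed. The WT IDL libraries used here are the same as in the genotype comparison, so that the comparisons are not independent. WT IDLs less WT light leaves of 1 d gave 16 members called higher (10.7%, against 15.1% of all genes tested) and 25 called lower (16.7%, against 18.6% of all), with a median difference of 0.02. At 6 h, 24 were higher (16%, against 12.5% of all) and 18 lower (12%, against 13.9% of all). The 16 became 25 without WT light 6 h replicate 3, which stands apart, as the count over all genes became 4586 in place of 3433. The 16 became 10 without WT light 1 d replicate 1 or replicate 3, and 9 without WT IDL 1 d replicate 1. The 24 became 15 without WT IDL 6 h replicate 1, and the 18 became 11 without WT IDL 6 h replicate 3. Of the 64 genes called higher in the mutant at 1 d, 17 were called lower in WT IDLs than in WT light, 9 were called higher, and 38 were called in neither direction. By course, WT IDLs of 1 d were called lower in 13 and higher in 0 of the 20 genes that went down in both genotypes (median -1.34). The counts were 7 and 1 of the 22 that held in the mutant (-0.65), and 4 and 1 of the 35 that went up in it and down in WT (-0.32). They were 1 and 10 of the 60 that went up in the mutant alone (0.51), and 0 and 4 of the 13 that went up in both (0.93). The courses were themselves set by later WT IDLs.

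The WT changes differed by gene. AT3G22810 had -1.63, -1.08 and -1.15 in WT IDLs of 1 d, against 1.20, 1.09 and 1.21 in WT light, and differed by -2.46 ± 0.22 (SE, n = 3 each, adjusted p = 2.99e-05). In *rpn12a-236* IDLs the same gene had 0.02, -0.12 and -0.0032, between both WT groups. APT3 (-2.36), GRIK2 (-2.23) and AT3G61080 (-2.22) made up the other large falls. MPK16 rose, with 0.62, 0.54 and 0.35 in WT IDLs, against -1.59, -1.29 and -1.24 in WT light (1.88 ± 0.27, adjusted p = 0.000255). It stood higher still in *rpn12a-236* IDLs, at 1.97, 2.11 and 2.50. AT4G01670 (1.57), IMB1 (1.57) and HSF3 (1.56) rose by similar amounts in WT IDLs and were not called between the genotypes at 1 d. The HSF3 call in WT IDLs was lost in 3 of the 12 fits that left out a library.

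Set against WT light leaves of the same 3 d and 6 d, as a description, *rpn12a-236* IDLs were higher by over 0.5 in 112 of the 150 genes, lower in 12 and within 0.5 in 26, with a median of 1.56. WT IDLs were higher than WT light in 20, lower in 81 and within 0.5 in 49, with a median of -0.63. Leaf age and hour of day could be read in WT light only. Between 6 h and 1 d WT light leaves, harvested at different hours, 28 members (18.7%) were called, where 16.2% of all genes tested were. CIPK1 was lowest at 6 h, by 2.72, and the B-box gene AT2G47890 highest, by 2.87. Between 6 d and 1 d WT light leaves 2 members (1.33%) were called, HIPL2 (-1.87) and AT1G74910 (-1.10), against 1.18% of all genes tested. Without WT light 6 h replicate 3 the 28 became 43 and the 2 became 12, and the counts over all genes became 4311 in place of 3689 and 1064 in place of 267. The 2 became 0 or 1 without any 1 d or 6 d light library or replicate 1 or 3 of 3 d.

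The 149 members with a RefSeq entry lay on all 5 chromosomes, with 39 on chromosome 1, 27 on 2, 33 on 3, 18 on 4 and 32 on 5. ATMG01370 had no entry and was therefore not placed. The widest gap from the genes without a floor was on chromosome 4, with 12% of members against 15.1%. Across all 42 libraries a pair of members had a median correlation of 0.42, which includes the libraries that chose the genes. Over the 24 libraries outside the selection the median was 0.18, with a 5th to 95th percentile range of -0.52 to 0.75. All pairs share the same libraries, and pairs of other genes were not examined. Reads were assigned by strand, so overlap matters most on the same strand: 61 of the 149 placed members (40.9%) overlapped another gene of the table, against 33.9% of genes without a floor, 13 of them on the same strand. AT1G20691 and AT1G20690, which overlap on opposite strands, correlated by 0.93 over the 42 libraries, and AT1G48750 and delta-ADR by 0.81. Whether the members of each pair are separate signals is uncertain.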

How the data were processed

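The authors trimmed the reads and removed rRNA, with FastQC 0.11.4 for quality, quantified TAIR10 transcripts strand by strand with kallisto 0.43.0, summed them to genes, transformed them with DESeq2's blind variance stabilization, shifted the values by their minimum and scaled them gene by gene. The deposited unit is a score, the z-score of a gene over the 42 libraries. Depth per library cannot be read from these scores, so precision rests on the spread of 3 replicates. The SD removed by the authors' scaling includes the differences tested here.

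The members and the gene lists were chosen with earlier results of these data known. Members were taken from the rule given at the start of the results. Groups came from the sample labels, and 0 columns of values were left unassigned. limma 3.58.1 in R 4.3.3 was fitted to 12 libraries at a time: both genotypes in 6 h and 1 d IDLs, WT IDLs and WT light at those times, and the 4 later WT light times. Genes needed 3 libraries of a fit above the floor to be tested. The p-values were two-sided and corrected after Benjamini and Hochberg across every gene of the fit. A call needed an adjusted p of at most 0.01. The named genes were the 10 ranked first, the largest differences called in each comparison and direction, and the members of the functional lists, which were built from annotation words or taken from the study. Genes named outside these rules were chosen after their values were seen. Symbols, products and coordinates came from RefSeq (TAIR10.1), where 149 of the 150 members had an entry, 65 of them with a symbol. Python 3.11.15, pandas 2.3.3 and matplotlib 3.10.9 did the rest, and the fit was tested on simulated data.

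Alternatives were thresholds of 0.001 and 0.05, fits on 6, 30 and 42 libraries, no filter on low values, genes with a floor left out, libraries centred on their medians, z-scores recomputed over the libraries of a fit, the replicate number as a block, other lengths of the ranking, and each library left out. Deviations of same-numbered replicates from their group means had correlations between -0.09 and 0.24 over genes, and equal numbers were therefore not taken as pairs.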

Additional observations from a re-analysis of the deposited data

Results flagged for a closer look

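The limma interaction of genotype and time asks whether the genotype difference changed between 6 h and 1 d (n = 3 libraries in each of 4 groups). It was called in 4 of the 150 genes, 2.67%, against 1.55% of all genes tested. These calls were lost in nearly every fit that left out a library, as given below. HIPL2, a hedgehog-interacting protein-like gene, had -0.64, -1.32 and -0.60 in *rpn12a-236* at 6 h, against 0.22, 0.42 and 0.34 in WT, and 1.85, 1.69 and 1.47 in *rpn12a-236* at 1 d, against 0.15, 0.18 and 0.11 in WT. The mutant was thus below WT in every library at 6 h and above it in every library at 1 d, and the change of the difference was 2.70 ± 0.31 (SE, adjusted p = 0.00485). WT light leaves of HIPL2 also stood lower at 6 h than at 1 d, by 1.95.

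EPR1 had -0.50, -1.13 and -1.22 in *rpn12a-236* at 6 h, against -0.71, -1.38 and -1.05 in WT, which overlapped, and separated at 1 d, a change of 2.37 ± 0.38 (adjusted p = 0.00727). AT5G39840, the RNA helicase, had 0.37, 0.74 and 0.82 in *rpn12a-236* at 6 h, against -0.19, 0.24 and -0.22 in WT, and -1.48, -2.10 and -2.16 in *rpn12a-236* at 1 d, against -0.77, -0.02 and -0.24 in WT. Its order turned over, with a change of -2.27 ± 0.38 (adjusted p = 0.0088).

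AT1G63660, annotated as a GMP synthase of purine synthesis, had 0.91, 0.97 and 1.05 in *rpn12a-236* at 6 h, against -0.36, 0.07 and -0.16 in WT, and -1.48, -1.04 and -0.75 in *rpn12a-236* at 1 d, against -0.08, -0.60 and -0.01 in WT, a change of -1.98 ± 0.34 (adjusted p = 0.00942). Time in darkness and hour of harvest cannot be told apart in these changes, since the 6 h leaves were taken at another hour than the 1 d leaves. The calls of HIPL2, EPR1 and AT5G39840 were lost in 11 and that of AT1G63660 in 12 of the 12 fits that left out a library.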

How the results depend on the processing

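At a threshold of 0.001 the genotype counts at 1 d were 21 higher and 0 lower, at 6 h 1 and 0, the interaction gave 0, WT IDLs over WT light gave 8 higher and 12 lower at 1 d and 10 and 9 at 6 h, WT light gave 17 for 6 h against 1 d and 0 for 6 d against 1 d. At 0.05 they were 8 lower for genotype at 1 d, 42 higher at 6 h, 24 for the interaction, 31 higher at 1 d and 30 lower at 6 h in WT IDLs, and 57 and 14 in WT light. With only the 6 libraries compared, 40 were higher at 1 d, 3 higher and 0 lower at 6 h, WT IDLs at 6 h gave 5 and 8, and WT light gave 11 and 0. With all 42 libraries, 7 were lower at 1 d, 31 higher and 1 lower at 6 h, 23 had an interaction, WT IDLs gave 25 higher at 1 d and 28 lower at 6 h, and WT light gave 43 and 10. With 30 libraries, 7 were lower at 1 d, 27 higher and 1 lower at 6 h and 19 had an interaction. With no filter 1 was lower at 6 h and 8 changed with age in WT light. With genes with a floor left out, 19 were higher at 6 h, 7 had an interaction and 4 changed with age. With recomputed z-scores, 2 were lower at 1 d, 6 higher and 0 lower at 6 h, and the interaction and age gave 0 each. Of the 100 highest-ranked genes 2% were lower at 6 h.

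With the replicate number as a block, 63 were higher and 3 lower at 1 d, 8 higher and 0 lower at 6 h, 2 had an interaction, and the WT light counts were 22 and 0. Leaving out 1 library at a time gave 37 to 65 higher and 1 to 4 lower at 1 d, 3 to 13 higher and 0 to 2 lower at 6 h, 0 to 6 interactions, 9 to 25 higher and 18 to 33 lower in WT IDLs at 1 d, 15 to 28 higher and 11 to 20 lower at 6 h, and 21 to 43 and 0 to 12 in WT light. Of the named values, 20 lost their call with 6 libraries, 13 with recomputed z-scores and 7 each with no filter and with the block. Sign changed only in 4 differences at 1 d that were near 0 and not called. HSF3 was at 2.7e-04 with centred libraries, and without single libraries HSF3 ran between -0.15 and 0.16, IAA2 between -0.27 and 0.10, RBR1 between -0.29 and 0.039 and AT4G01670 between -0.25 and 0.049. The cause of these changes was not tested. Depth is unknown from z-scores, and at 3 libraries a group an uncalled gene is not shown to be alike in both genotypes.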
